A study of Drosophila melanogaster with 19 samples.

Results

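The guts of flies that overexpressed nub-RB (c564>nub-RB) were set against the guts of driver control flies (c564>+), with 3 one-colour Agilent arrays in each group. These are 6 of the 19 arrays of a Drosophila melanogaster series. They were chosen by their labelled genotype and tissue alone. The other arrays hold c564>Pdm2-RB guts (3), in which the related POU gene Pdm2 was overexpressed, and the rest of the body without gut and head of all genotypes. In c564>nub-RB flies the driver c564-Gal4 switched on a UAS-nub-RB transgene on a w background. c564>+ flies, which the sample titles call w1118, carried the driver without any UAS transgene, so both groups contain c564-Gal4. The genotype label of the control spells the driver c546-Gal4, while the design text and the Methods spell it c564-Gal4. All 6 samples are labelled female, 10 days old and gut, and the flies came from mixed-sex populations kept at 25 °C. By the Methods each array received RNA of an independent pool of dissected guts, and the pools were treated as biological replicates. c564-Gal4 is used as a driver for midgut and fat body, so the transgene was not limited to one cell type of the gut, and each sample mixes all cells of the dissected intestine. The c564>nub-RB arrays carry the numbers 1, 3a and 4 and the c564>+ arrays the numbers 1, 3 and 4, and the labels do not explain the letter. In such bulk samples, fewer cells of a type and less RNA per cell cannot be told apart.

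The gene nub (nubbin, also Pdm1) encodes a transcription factor of the POU family. Separate promoters give rise to a long protein, Nub-PB, from the nub-RB transcript and a shorter one, Nub-PD, which share their DNA-binding domains. In the adult midgut nub marks the enterocytes, the large absorptive cells that also form a barrier against microbes. Gut immunity in flies relies on the IMD pathway, which is triggered by bacterial peptidoglycan through receptors of the PGRP family and ends in the NF-kappaB factor Relish, and on reactive oxygen species. The Toll pathway acts mainly in the fat body, and JAK/STAT and JNK signalling take part in stress responses and renewal of the epithelium. The effectors are antimicrobial peptides (AMPs) such as Diptericins, Attacins and Cecropins. The comparison asks which transcripts of the gut differ when nub-RB is overexpressed.

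Values are quantile-normalized linear signals in arbitrary units, 1 per probe and array, and a log2 fold change is the mean log2 signal of the c564>nub-RB arrays minus that of the c564>+ arrays. A probe was called when its adjusted p from limma (Benjamini-Hochberg) was below 0.01. A probe is given as well above background where the scanner software marked it so, which held for 67.6% to 79.9% of the 32162 probes on the 6 arrays. c564>+ replicate 1 was the dimmest array, with a median processed signal of 54.9 before normalization, against 133 to 332 on the other 5. That array was also the only one of the 6 from the second of 2 scan batches. Arrays of a group did not always resemble each other most. Over the tested probes, c564>nub-RB replicate 1 correlated with c564>+ replicate 3 at r = 0.956, and with replicates 3a and 4 of its own group at 0.934 and 0.931. The tissue label was checked with digestive enzymes, 25 probes for trypsins, Jonah proteases and maltases, whose summed signals were 6128350, 5549670 and 5387910 in c564>nub-RB and 5423950, 5814200 and 5667750 in c564>+, against 6098 to 1277800 on the 10 arrays of the rest of the body.

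The sex label was checked with roX1, a non-coding RNA of the male dosage compensation complex. Its brightest probe gave signals of 1518, 289 and 95.9 on c564>nub-RB replicates 1, 3a and 4, and of 3759, 4543 and 7638 on c564>+ replicates 1, 3 and 4. These levels did not overlap, and the 3 c564>+ guts were the higher ones, with a log2 fold change of -3.87 (SE 0.99, adjusted p = 0.125). On the 10 arrays of the rest of the body, the same probe lay between 56.2 and 132. The c564>Pdm2-RB guts had 2039, 216 and 5118. The second roX gene, roX2, gave 64.6, 2.64 and 2.497 in c564>nub-RB and 104, 41.9 and 275 in c564>+ guts, and the other 6 male markers found by name, which are testis genes of the Mst group and ocn, were below the signal threshold in both groups. The part of roX1 in the results below was not tested.

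The nub gene itself was read by 5 named probes, all annotated to the same transcript, and the sources used here do not say which isoform each detects. The brightest, A_09_P004151, had signals of 11089, 7579 and 8065 in c564>nub-RB and 5599.7, 10226 and 7383 in c564>+. The groups overlapped, and the log2 fold change was 0.23 (SE 0.27, adjusted p = 0.706). A_09_P048246 gave 259, 125 and 114 in c564>nub-RB and 41.6, 53.1 and 31.8 in c564>+, without overlap, which 14.4% of all tested probes shared on the higher side. This probe passed the signal threshold of 130 only through c564>nub-RB, so its direction was set by the threshold. Its log2 fold change of 1.91 (SE 0.37, adjusted p = 0.07) was not called. A_09_P161260 did not overlap either, with a log2 fold change of 1.64 (adjusted p = 0.125), while the groups overlapped on A_09_P196920, at 0.63 (adjusted p = 0.342), and A_09_P210005 stayed below the signal threshold and was not tested. limma called none of the 4 tested probes, of which A_09_P048246 and A_09_P161260 had unadjusted p of 0.0022 and 0.00798, and A_09_P048246 passed under 1 of 22 alternative settings. Whether a probe reads the transcript of the transgene is not given in the sources used here.

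Across the transcriptome most probes differed little between the genotypes. Of the 16699 probes tested, which had a mean signal above 130 in at least 1 of the 2 groups, 15524 passed the threshold in both groups, 541 only in c564>nub-RB and 634 only in c564>+. The median log2 fold change was 0.03, the 5th and 95th percentiles were -1.07 and 0.84, and 90.9% of the probes lay within 2-fold. At the edges the distribution leaned to the lower side, with 151 probes at least 4-fold higher and 346 at least 4-fold lower in c564>nub-RB. The median spread between arrays was alike in both groups, with an SD of 0.25 on the log2 scale, and 932 probes in c564>nub-RB and 816 in c564>+ had an SD above 1.

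limma called 83 probes, or 0.497% of those tested. In c564>nub-RB, 44 of them (0.263%) were higher and 39 (0.234%) were lower. On all 83 the 3 arrays of one group lay wholly above the 3 of the other, a property that 2398 probes (14.4%) shared in the higher and 1797 (10.8%) in the lower direction. The called probes had large changes, with log2 fold changes of at least 1.32 and a median of 3.03 among the higher ones, and of at most -1.33 with a median of -3.16 among the lower ones. Of the probes called higher, 31 changed by at least 4-fold, as did 31 of those called lower. At an unadjusted p below 0.05 there were 3059 probes. Every single array carried weight in these calls. limma called 46 probes without c564>nub-RB replicate 1, 17 without replicate 3a and 10 without replicate 4, and 19 without c564>+ replicate 1, 6 without replicate 3 and 14 without replicate 4. Of the 83, between 5 and 29 were among those called with an array left out. Their adjusted p without any 1 array was at most 0.067, and for 66 of them it was below 0.05 each time. Within the slides that held an array of each genotype, the median difference over the 44 probes was 3.07 (slide 2) and 3.01 (slide 3), and that over the 39 was -2.84 and -3.17. The sign of these differences was set by the selection, as the probes were called on the same arrays and did not overlap. They are therefore no separate support for the calls.

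**Figure D1:**
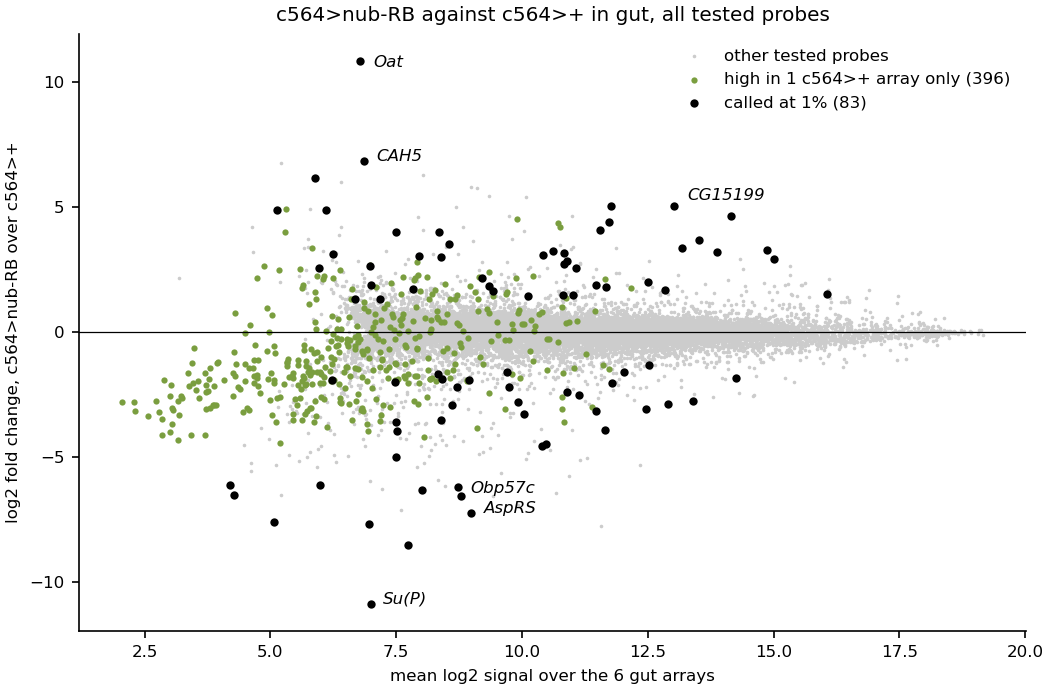
Each point is 1 of the 16699 tested probes, with its mean log2 signal over the 6 gut arrays on the x axis and its log2 fold change, c564>nub-RB over c564>+, on the y axis. Black points are the 83 called probes, green points the 396 probes that are high in 1 c564>+ array only. The called probes lie at 1.32 and above or at -1.33 and below, and many green points with low fold changes are not among them.

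Oat, which encodes ornithine aminotransferase, an enzyme of proline and arginine metabolism, had the highest fold change. Its signals were 3628, 4629 and 6464 in c564>nub-RB and 2.28, 3.02 and 2.44 in c564>+ (log2 fold change 10.86, SE 0.25, adjusted p = 9.33e-05). None of the c564>+ arrays had the probe well above background, so the size is a bound, and Oat was at least 519-fold higher. Such a bound divides the mean of the bright group by that of the dim group, in which each array counts with its own value or with the dimmest signal still marked as above background, whichever is higher. The other Oat probe, A_09_P033076, was not called, at a log2 fold change of 1.77 (SE 0.40, adjusted p = 0.101). CAH5, a carbonic anhydrase gene, had 1996, 892 and 1057 in c564>nub-RB and 16.4, 8.47 and 9.02 in c564>+, again at background in the control, and was at least 114-fold higher, where its own control signals were above the dimmest such signal and set the bound (adjusted p = 0.00254). A_09_P187420, which has no gene symbol here, had 661, 484 and 398 in c564>nub-RB and 8.68, 6.20 and 6.23 in c564>+ and was at least 54.7-fold higher (adjusted p = 0.000674). On these 3 probes every c564>nub-RB signal was at least 398 and every c564>+ signal at most 16.4. All 3 passed the signal threshold only through c564>nub-RB, so their direction was set by the threshold.

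Several genes that rose were well expressed in both genotypes. CREG, the homologue of a mammalian repressor of E1A-stimulated genes, had signals of 39911, 45634 and 50547 in c564>nub-RB and 4102, 6056 and 4875 in c564>+ (log2 fold change 3.19, SE 0.19, adjusted p = 0.00287). For lectin-37Da, a galactose-binding C-type lectin, they were 79956, 88656 and 107948 in c564>nub-RB and 11982, 13344 and 10534 in c564>+ (log2 fold change 2.94, SE 0.17, adjusted p = 0.00267). The lowest c564>nub-RB array thus stood several times above the highest c564>+ array for both genes. Cyp6a2, a cytochrome P450 known from the metabolism of insecticides, had 4721, 5041 and 4389 in c564>nub-RB and 789.7, 746 and 617 in c564>+ (log2 fold change 2.72, SE 0.15, adjusted p = 0.00237). wnd, which encodes Wallenda, a MAP kinase kinase kinase upstream of JNK, had 5109, 5034 and 5532 in c564>nub-RB and 1099, 798 and 784 in c564>+ (log2 fold change 2.56, SE 0.18, adjusted p = 0.00408). Both rose with little spread, and neither group overlapped the other.

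Srg2, named as a STING-regulated gene, had 35517, 43855 and 48224 in c564>nub-RB and 3312, 4000.1 and 2643 in c564>+ (log2 fold change 3.69, SE 0.21, adjusted p = 0.00241). A pair of further genes with this annotation lay outside the 15 largest changes and were picked out after their values had been seen. Nazo, an antiviral gene downstream of STING, rose by 1.69 on the log2 scale (adjusted p = 0.00606), and Srg3 by 1.53 (adjusted p = 0.00861). A second Srg3 probe, A_09_P217360, had a log2 fold change of -2.27 (adjusted p = 0.121), so its probes disagreed in sign. Srg1, of the same naming, was not called on either probe, with log2 fold changes of -0.83 (adjusted p = 0.388) and -0.79 (adjusted p = 0.323), and its groups overlapped. Takl1, a relative of the kinase gene Tak1, rose on both of its probes, by 1.82 and 1.87. CR32368, annotated as non-coding, had 87164, 91591 and 101832 in c564>nub-RB and 12905, 7856 and 8832 in c564>+ (log2 fold change 3.28, SE 0.22, adjusted p = 0.00367). Its c564>nub-RB arrays were all above its c564>+ arrays.

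The other 7 of the 15 named genes with the largest increases have no established name. CG42823 had 336, 361 and 436 in c564>nub-RB and 11.4, 15.04 and 12.02 in c564>+ (log2 fold change 4.88, SE 0.18, adjusted p = 0.000563). CG15199 had 144872, 84439 and 60792 in c564>nub-RB and 2487, 5305 and 3583 in c564>+, with log2 fold changes of 4.65 and 5.04 on its probes. CG12934 rose by 4.42 and CG17264 by 3.24 on the log2 scale. The adjusted p of all 4 lay between 0.000563 and 0.00861. CG8204 (log2 fold change 3.08), CG3513 (3.04) and CG6912 (2.84) rose as well, and the log2 fold change on the second probe of CG3513 was 2.94. Among the probes without a symbol, A_09_P171285 had 13369, 22664 and 26546 in c564>nub-RB and 424, 837 and 639.8 in c564>+ (log2 fold change 5.04, SE 0.36, adjusted p = 0.00448). With 1 array left out at a time, Oat and CG42823 were called in all 6 fits, CG17264 and A_09_P187420 in 5, and CAH5 in 2, while the other 11 of the 15 genes were called in 1 or 0. CG42823 and the brightest CG3513 probe passed the signal threshold only through c564>nub-RB, so their direction was set by the threshold.

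**Figure D2:**
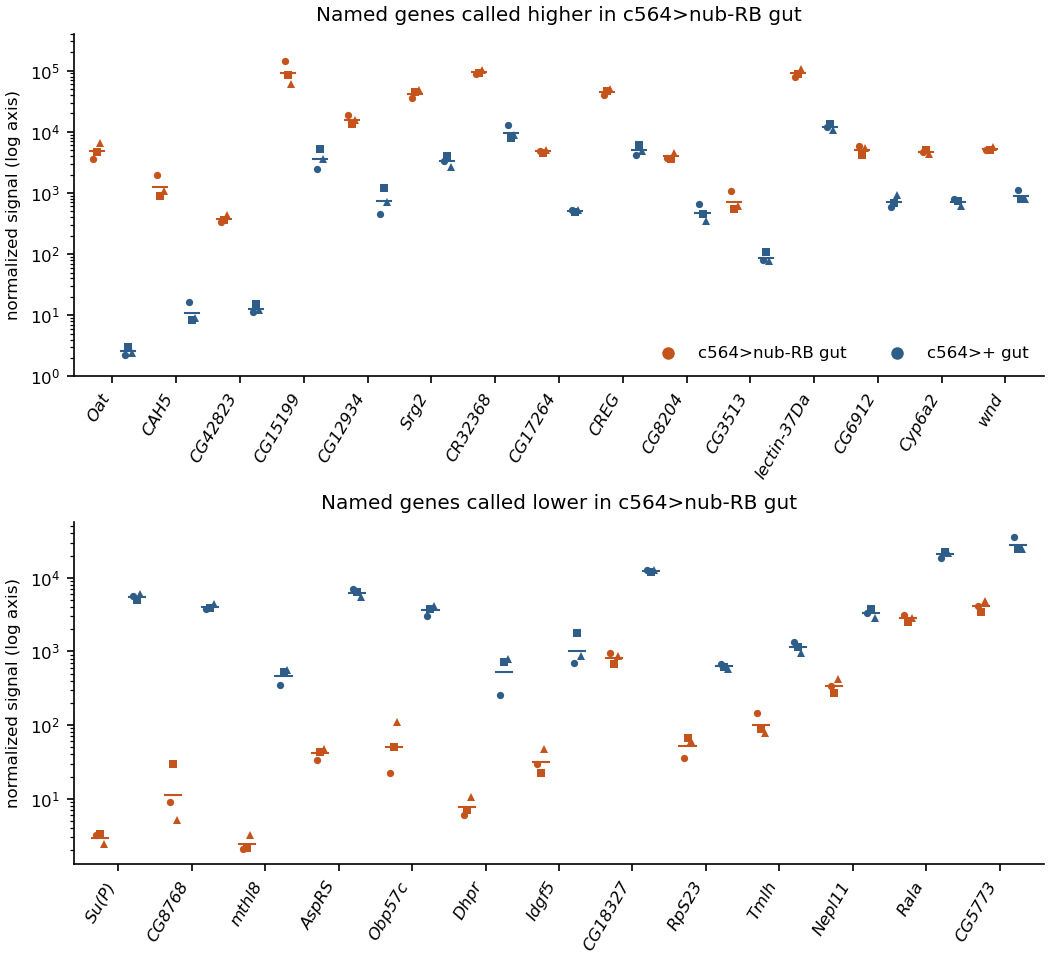
Normalized signal on a log axis for the 15 named genes with the largest increases (upper panel) and the 13 named genes called lower (lower panel), with c564>nub-RB in orange on the left and c564>+ in blue on the right of each gene. Circles, squares and triangles are the replicates in the order 1, 3a (3 in c564>+) and 4, and bars are means of log2 signals. The 2 groups do not overlap for any gene shown.

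On the lower side, Su(P) had signals of 3.17, 3.30 and 2.44 in c564>nub-RB and 5591, 5009.8 and 6012 in c564>+ (log2 fold change -10.87, SE 0.17, adjusted p = 2.06e-05). None of the c564>nub-RB arrays had it well above background, and the signal was at least 893-fold lower there. mthl8, which encodes a G protein-coupled receptor of the Methuselah-like family, had 2.08, 2.14 and 3.18 in c564>nub-RB and 353, 519 and 563 in c564>+, also at background in c564>nub-RB, and was at least 75.8-fold lower (adjusted p = 0.000506). AspRS, the aspartyl-tRNA synthetase, which charges tRNA for protein synthesis, stayed above background in both groups, at 33.9, 43.4 and 47.3 in c564>nub-RB and 7104, 6448 and 5486 in c564>+ (log2 fold change -7.26, SE 0.19, adjusted p = 0.000125). In all 3 genes the c564>nub-RB arrays were close together at a low level, and these were the 3 lower genes that stayed called with any 1 array left out. All 3 passed the signal threshold only through c564>+, so their direction was set by the threshold. CG8768 fell on both called probes, with log2 fold changes of -8.51 and -6.32, and another probe had -1.75 on the same scale (adjusted p = 0.0116). Among the probes without a symbol, A_09_P014061 had the lowest log2 fold change, with 10.72, 11.02 and 5.42 in c564>nub-RB and 1199, 1324 and 3631 in c564>+ (log2 fold change -7.70, SE 0.51, adjusted p = 0.00367). The direction of this probe and of the CG8768 probe at -8.51 was set by the threshold too, as both passed it only through c564>+.

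Among the other genes called lower, Dhpr, the dihydropteridine reductase, which recycles the cofactor of aromatic amino acid hydroxylases, had 5.94, 7.10 and 10.6 in c564>nub-RB and 256, 718 and 788 in c564>+ (log2 fold change -6.10, SE 0.49, adjusted p = 0.00643). Tmlh, an enzyme of carnitine synthesis, had 147, 87.3 and 78.3 in c564>nub-RB and 1325, 1136 and 966 in c564>+ (log2 fold change -3.50, SE 0.28, adjusted p = 0.00643), and the log2 fold change on its second probe was -3.56. The groups were well apart for both genes. Idgf5, a secreted chitinase-like growth factor, had 29.9, 22.3 and 47.6 in c564>nub-RB and 692, 1798 and 866 in c564>+ (log2 fold change -5.02, SE 0.44, adjusted p = 0.00861). Nepl11, a neprilysin-like metallopeptidase gene, fell as well, with a log2 fold change of -3.28, as did CG18327 (-3.93) and CG5773 (-2.75). CG18327 also had a second probe with a log2 fold change of -1.47 (adjusted p = 0.0101), just outside the threshold. Dhpr, Idgf5 and the Tmlh probe with signals given passed the signal threshold only through c564>+, which set their direction.

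For a pair of genes called lower, other probes gave different values. The called probe of RpS23, a protein of the small ribosomal subunit, had 35.6, 66.3 and 60.5 in c564>nub-RB and 682, 614 and 582 in c564>+ (log2 fold change -3.58, SE 0.26, adjusted p = 0.00477). This probe passed the signal threshold only through c564>+, so its direction was set by the threshold. A second probe, A_09_P007581, had 245249, 292491 and 275452 in c564>nub-RB and 276952, 265193 and 271490 in c564>+, with a log2 fold change of -0.0044 (SE 0.13, adjusted p = 0.991). The groups overlapped on that probe. Rala, a Ras-like GTPase gene, fell on both called probes (log2 fold changes -2.89 and -3.06), with 3140.5, 2513 and 2819.7 in c564>nub-RB and 18332, 22558 and 21767 in c564>+ on the brighter one. Another Rala probe, A_09_P030671, had a log2 fold change of 1.06 (SE 0.14, adjusted p = 0.0255) and pointed the other way. The size and sign of these changes therefore depended on the probe.

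Only 38 of the 83 called probes could be given a gene symbol, for 21 genes with higher and 13 with lower signal, and 812 of the tested probes had one. In the gene order of the RefSeq annotation (Release 6 assembly), some of the 34 called genes lay close together. CG17224, with a log2 fold change of 1.48 (adjusted p = 0.00944), and CG17264 are neighbours on arm 2L with 0 annotated genes between them. wnd and Oat on 3L have 1 gene between them, and CREG and CG42823 on 3R have 3, and all of these rose. BomS3 and Idgf5 on 2R also have 3 genes between them and changed in opposite directions. As a gene was placed only if it had a symbol, this is a description of the named genes and not of the whole set.

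The AMP genes had fold changes above 0 in c564>nub-RB guts, and none of them passed the test. Of 14 listed genes, 13 were found and 10 passed the signal threshold. CecA1 passed it only through c564>nub-RB, and the other 9 in both groups. The log2 fold changes of the 10 were above 0, with a median of 3.57 against 0.03 over all tested probes, and 8 did not overlap between the groups on the higher side, against 14.4% of all tested probes. limma called 0 at 1%, with 3 below an adjusted p of 0.05 and 7 at an unadjusted p below 0.05. The test with a standard deviation pooled over all probes called 7, limma with a variance trend and robust fit 2, limma on all 6 groups 1, limma on the 9 gut arrays 0 and the test with the spread of each probe 0. For this list and those below, the background is all 16699 tested probes. Of these, 349 were below an adjusted p of 0.05 and 3059 at an unadjusted p below 0.05. In the same order, the other tests called 545, 146, 716, 194 and 8 of them. Without c564>nub-RB replicate 1 the median was 2.998, and without c564>+ replicate 1 it was 3.54. Most members were named from lists of changed genes that were drawn up on these samples, so the direction of the list is not independent evidence.

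The Attacin genes AttA, AttC and AttB had the highest log2 fold changes of the list. AttA had 9758, 2930.2 and 12468 in c564>nub-RB and 222, 141 and 147 in c564>+ (log2 fold change 5.41, SE 0.57, adjusted p = 0.0133). AttC had 16403, 4999.9 and 13038 in c564>nub-RB and 497, 496 and 279.7 in c564>+ (log2 fold change 4.64, SE 0.50, adjusted p = 0.0147). Both lay just outside the threshold, and their c564>nub-RB arrays were all above their c564>+ arrays. AttB, a near-identical copy of AttA whose probe may read both, had a log2 fold change of 4.63 (adjusted p = 0.0404), and AttD, which lacks a signal peptide, 1.43 (adjusted p = 0.328). Of the IMD-dependent Diptericins, DptA had 11346, 1733 and 3927 in c564>nub-RB and 186, 384 and 244 in c564>+ (log2 fold change 4.04, SE 0.70, adjusted p = 0.0523), and DptB had a log2 fold change of 3.39. Mtk, the antifungal Metchnikowin, had 6849, 1377 and 3697 in c564>nub-RB and 396, 277 and 132 in c564>+ (log2 fold change 3.75, SE 0.68, adjusted p = 0.0596). CecA1 had a log2 fold change of 2.23 (adjusted p = 0.0954), while CecA2 and CecC, close relatives of it, were below the signal threshold. In these 8 genes, AttA, AttB, AttC, AttD, DptA, DptB, Mtk and CecA1, replicate 3a was the lowest c564>nub-RB array. Their spread was wide, with an SD of 1.36 (n = 3) on the log2 scale for DptA in c564>nub-RB, against a median of 0.25 over all tested probes.

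Drs, which encodes the antifungal Drosomycin, had 225090, 240400 and 254350 in c564>nub-RB and 174207, 228236 and 238697 in c564>+, with overlap. Its log2 fold change was 0.18 (adjusted p = 0.618), and it was -0.37 when the arrays were scaled by their 75th percentile. Def, the Defensin gene, had a log2 fold change of 0.39 (adjusted p = 0.295). The Drosomycin-like genes went separate ways. Drsl2 had 6184, 1799 and 1137 in c564>nub-RB and 56.2, 89.8 and 74.6 in c564>+ (log2 fold change 5.01, SE 0.63, adjusted p = 0.0229), without overlap, and passed the signal threshold only through c564>nub-RB. Drsl5 had 3973, 612 and 336 in c564>nub-RB and 13393, 2429 and 7705 in c564>+ (log2 fold change -2.75, SE 1.07, adjusted p = 0.251), with overlap. Drsl1 had a log2 fold change of 0.33 (adjusted p = 0.701), which was -0.087 without c564>+ replicate 1. limma called 0 of these 3 at 1%, against 2 at an unadjusted p below 0.05, 2 by the test with a pooled standard deviation and 1 each by limma on all 6 groups and by limma with a variance trend and robust fit.

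**Figure D3:**
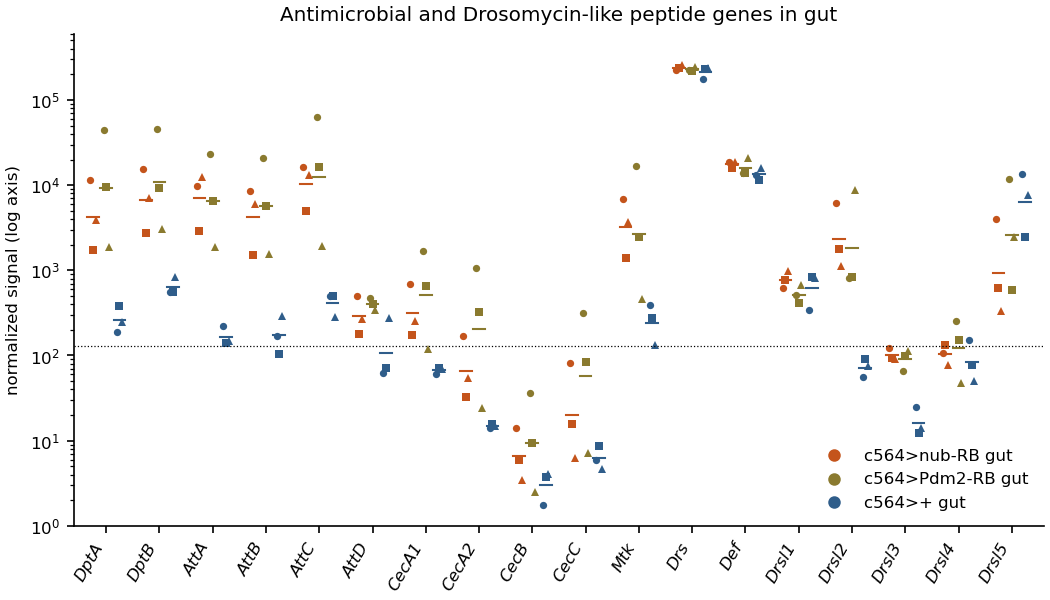
Normalized signal on a log axis of the antimicrobial and Drosomycin-like peptide genes in gut, with c564>nub-RB (orange), c564>Pdm2-RB (olive) and c564>+ (blue) from left to right for each gene. Circles, squares and triangles are the replicates in order, bars are means of log2 signals and the dotted line is the signal threshold of 130. Drs is at 174207 or more on every array, whereas AttA, AttC and DptA lie higher on each c564>nub-RB array than on any c564>+ array.

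Bomanins, short secreted peptides controlled mainly by Toll, were listed with other immune-induced peptides such as Dso1, Dso2 and IM10. The 15 genes of the list, 9 of them Bomanins, were all tested, with a median log2 fold change of 0.93. Of these, 1 was called higher, BomS3 (also IM3). Its called probe had 245, 213 and 284 in c564>nub-RB and 74.6, 64.99 and 59.4 in c564>+ (log2 fold change 1.89, SE 0.17, adjusted p = 0.00861), and its brightest probe had a log2 fold change of 0.95 (adjusted p = 0.057). The called probe passed the signal threshold only through c564>nub-RB, so its direction was set by the threshold, while the brightest probe passed it in both groups. On their brightest probes, 10 of the 15 lay wholly above and 1 wholly below the c564>+ arrays, against 14.4% and 10.8% of all tested probes. At an unadjusted p below 0.05 there were 11, and limma on the 9 gut arrays, limma on all 6 groups and limma with a variance trend and robust fit each called 3. Of 11 lysozyme and transferrin genes listed, 6 were found and tested, with a median log2 fold change of 1.54. The groups did not overlap in these 6, on the higher side, against 14.4% of all tested probes. LysP passed the signal threshold only through c564>nub-RB, where it was high, with 310.2, 228 and 17.2 in c564>nub-RB and 5.10, 6.15 and 5.97 in c564>+, so its direction was set by the threshold. Lysozymes are digestive enzymes of the fly midgut as well as antibacterial proteins. LysC had 98597, 82498 and 59247 in c564>nub-RB and 15913, 21405 and 25382 in c564>+ (log2 fold change 1.93, SE 0.27, adjusted p = 0.0279), and Tsf1, an iron-binding transferrin, had a log2 fold change of 1.14 (SE 0.29, adjusted p = 0.125). limma called 0 of the 6, against 5 at an unadjusted p below 0.05, 3 by the test with a pooled standard deviation and 1 each by limma on the 9 gut arrays and by limma with a variance trend and robust fit.

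Few genes upstream of the peptides could be followed. Over all 16699 tested probes, 3059 had an unadjusted p below 0.05, and the test with a pooled standard deviation called 545. Of the IMD pathway and recognition genes 5 could be tested, with a median log2 fold change of 0.55 and 0 called by limma (3 at an unadjusted p below 0.05, 0 by the test with a pooled standard deviation and 1 each by limma on the 9 gut arrays and by limma with a variance trend and robust fit). PGRP-SB1, a secreted amidase, had 6723, 1528 and 3861 in c564>nub-RB and 1274, 1507 and 705 in c564>+ (log2 fold change 1.62, SE 0.59, adjusted p = 0.228), and PGRP-SC1b, an amidase that degrades peptidoglycan, had a log2 fold change of 0.74 (adjusted p = 0.0477). The log2 fold change of the receptor gene PGRP-SD was 0.55, and those of PGRP-SA and PGRP-LF lay within 0.1 of 0. The 8 Toll pathway genes had a median of 0.002 and 0 called by limma (2 at an unadjusted p below 0.05, and 1 by the test with a pooled standard deviation). The exception in size was Toll-6, a receptor of the Toll family known from the nervous system, with 52.7, 3.86 and 3.98 in c564>nub-RB and 250.4, 333 and 743 in c564>+ (log2 fold change -5.41, SE 1.10, adjusted p = 0.0782). Toll-6 passed the signal threshold only through c564>+, so its direction was set by the threshold. Of the JAK/STAT targets, the stress peptides TotC, TotM and TotX ranged from -0.27 to 1.12 and 0 were called by limma, at an unadjusted p below 0.05 or by the other tests. Among 4 JNK pathway genes wnd was called, and the log2 fold changes of the JNK phosphatase gene puc and of the metalloprotease gene Mmp1 were 0.11 and 0.45.

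Digestive enzymes had a median log2 fold change of 0.0026 over 25 probes. limma called 0 of them, against 6 at an unadjusted p below 0.05, 3 by the test with a pooled standard deviation and 1 by that with the spread of each probe. Over all 16699 tested probes these last 3 counts were 3059, 545 and 8. The log2 fold changes of the trypsins and Jonah proteases ran from -1.06 to 0.42. Higher values came from a few genes of sugar digestion, while the other maltase genes of the list and its amylase genes were not found by name. Mal-A7, a maltase gene, had 99416, 101263 and 100588 in c564>nub-RB and 32490, 31564 and 16316 in c564>+ (log2 fold change 1.97, SE 0.29, adjusted p = 0.0353), Mal-A8 had a log2 fold change of 2.64 (adjusted p = 0.0402) and tobi, a glucosidase gene regulated by sugar and protein in the diet, one of 2.29 (adjusted p = 0.0918). None of the 3 was called, and none overlapped between the groups. Over the 25 probes, 6 lay wholly above and 2 wholly below the c564>+ arrays, against 14.4% and 10.8% of all tested probes. Of 5 redox and detoxification genes only Cyp6a2 was called, while Cyp6a19 had a log2 fold change of 2.24 (SE 1.07, adjusted p = 0.337). Cyp6a19 passed the signal threshold only through c564>nub-RB, which set its direction.

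Of 31 odorant-binding protein genes listed, 5 were found and 4 tested. Obp46a and Obp57c passed the signal threshold only through c564>+, so their direction was set by the threshold, and Obp99b had a log2 fold change of -0.22 (adjusted p = 0.878). Obp57c, which encodes such a carrier protein, had 22.5, 50.7 and 108 in c564>nub-RB and 2988, 3821 and 4164 in c564>+ and was called lower (log2 fold change -6.18, SE 0.56, adjusted p = 0.00861). Obp57a had 3.07, 646 and 4471 in c564>nub-RB and 35592, 47467 and 52102 in c564>+, with a log2 fold change of -7.75 (SE 2.58, adjusted p = 0.201). The c564>nub-RB arrays of Obp57a thus spread over 3 orders of magnitude. Tom and BobA, members of the Bearded family that acts in Notch signalling, varied widely within c564>nub-RB as well. Tom had 2394, 833 and 2.72 in c564>nub-RB and 10407, 13611 and 25807 in c564>+ (log2 fold change -6.45, SE 2.51, adjusted p = 0.253), and BobA had a log2 fold change of -5.78 (adjusted p = 0.119). Both were lowest in c564>nub-RB replicate 4, and neither was called. Of the tested genes on the Notch list, Tom and BobA were below 0, and Ser was above it, with a log2 fold change of 0.47 (adjusted p = 0.646). The list entry m1 had been matched to a gene of another name, Kaz1-ORFB on arm 3L, with a log2 fold change of 0.29 (adjusted p = 0.479). It is not counted as a Notch gene here.

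**Figure D4:**
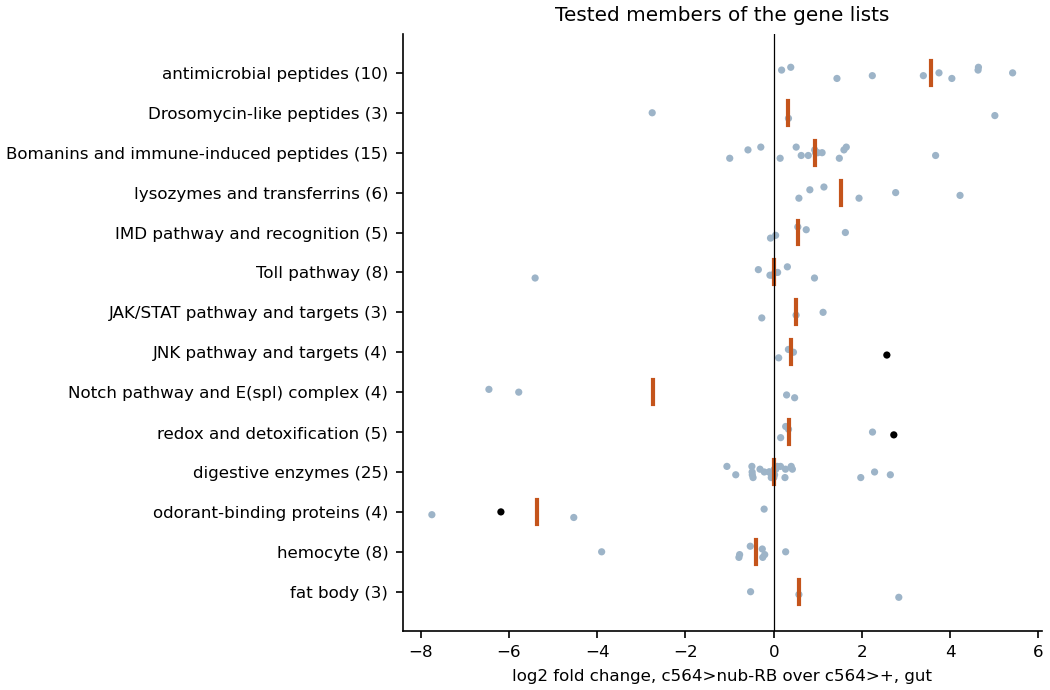
Log2 fold change, c564>nub-RB over c564>+ in gut, of each tested member of the gene lists, 1 point per gene on its brightest probe, with the list median as an orange bar. Black points are called on the plotted probe, and grey points are not called. The AMP median lies at 3.57, and that of the digestive enzymes at 0.0026. The Notch list is plotted with Kaz1-ORFB, a gene of another name that was matched to a list entry.

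Markers of gut cell types and of other tissues were looked at next to these results. Of 10 hemocyte genes found, 8 were tested, with a median log2 fold change of -0.40, 7 below 0 and 0 called by limma (1 at an unadjusted p below 0.05 and 1 by the test with a pooled standard deviation). Over all 16699 tested probes the counts in brackets were 3059 and 545. The summed signal of the 10 hemocyte genes found was 13608, 5871 and 6202 in c564>nub-RB and 14701, 17801 and 25568 in c564>+. NimC4, a phagocytosis receptor gene of the Nimrod family, accounted for the largest difference, with 2810.1, 199.9 and 267 in c564>nub-RB and 6679, 5325 and 14026 in c564>+ (log2 fold change -3.90, SE 1.05, adjusted p = 0.141), whereas Hml and eater, which define hemocytes, had log2 fold changes of -0.25 and -0.26. Of 5 fat body genes found, 3 were tested. The 5 had summed signals of 16734, 17677 and 15611 in c564>nub-RB and 16160, 22556 and 25503 in c564>+, most of it from to (takeout), with a log2 fold change of -0.52 (adjusted p = 0.305). The list median was 0.57, as the storage protein genes lay on the other side. Lsp1gamma had 0.57 (adjusted p = 0.684) and Lsp1beta 2.84 (adjusted p = 0.272) on the log2 scale, and Lsp1beta had 1627, 233 and 61.6 in c564>nub-RB and 55.01, 40.5 and 28.9 in c564>+, passing the threshold only through c564>nub-RB. Eggshell and photoreceptor genes differed between single arrays and are given below. Of 7 enterocyte genes listed, 2 were found and tested, nub, given above, and Npc2e, and 0 were called by limma. Npc2e had 59783, 11584 and 15338.5 in c564>nub-RB and 67072, 102696 and 94781.5 in c564>+ (log2 fold change -1.98, SE 0.63, adjusted p = 0.185). Lists for progenitor cells, enteroendocrine cells and neurons had 0 members that could be found by name, and those for visceral muscle and Malpighian tubule had 1 each, with log2 fold changes of -0.22 and 0.11. The part of these markers in the results was not tested.

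Some probes were high in a single array of a group, at least 4-fold above each of the other 2. Among c564>nub-RB arrays there were 159 such probes in replicate 1, 32 in replicate 3a and 9 in replicate 4. Among c564>+ arrays there were 243 in replicate 1, 8 in replicate 3 and 145 in replicate 4. In total, 200 tested probes were high in a single c564>nub-RB array and 396 in a single c564>+ array. Through that array alone, 99 of the 243 probes of c564>+ replicate 1 and 95 of the 145 of replicate 4 brought the mean of the c564>+ group above the threshold, against 15, 5 and 1 for the c564>nub-RB arrays. The same count in the c564>Pdm2-RB guts was 172, 32 and 44. None of the 200 or of the 396 was among the 83 called probes. A gap of that size raises the SD of its group, which in itself makes a call unlikely. Such probes occurred in both genotypes, and replicate 1 held the most in each.

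The named probes high in c564>+ replicate 1 were led by genes known from tissues other than the gut. yellow-g2, a gene of eggshell formation, had 6.92, 3762 and 2989.7 in c564>nub-RB and 11947, 5.11 and 12.7 in c564>+. ndl, which encodes the eggshell protease Nudel, had 2.06, 264 and 733 in c564>nub-RB and 327, 2.25 and 2.22 in c564>+. For both genes c564>nub-RB replicates 3a and 4 were high as well, so that the log2 fold changes were above 0, at 2.22 and 2.64, with adjusted p of 0.796 and 0.678. ndl passed the signal threshold only through c564>nub-RB. Arr1, the photoreceptor arrestin, had 379, 82.2 and 96.6 in c564>nub-RB and 22428, 478 and 854 in c564>+ (log2 fold change -3.86, SE 1.53, adjusted p = 0.261). trpl, a light-activated channel gene outside the leading 5, is shown as a second photoreceptor gene, with 172, 86.3 and 96.3 in c564>nub-RB and 7099, 209.5 and 204 in c564>+. Of the 6 arrays, c564>+ replicate 1 was far above the rest for both photoreceptor genes. CG8329 and CG3088 completed the leading 5 beside yellow-g2, ndl and Arr1, with 785 and 537 in c564>+ replicate 1 and at most 10.96 and 12.1 in the other c564>+ arrays.

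In c564>+ replicate 4 the leading genes were ImpL1, CG14110, CtsL2, TwdlB and Osi19. ImpL1, an ecdysone-inducible gene, had 2776, 82.3 and 75.6 in c564>nub-RB and 13.5, 4.54 and 6395 in c564>+. CG14110 had 4509.6, 8.27 and 7.47 in c564>nub-RB and 11.8, 10.8 and 4617 in c564>+. In both, c564>nub-RB replicate 1 was high together with c564>+ replicate 4, and 44 tested probes were high alone in exactly these 2 arrays. TwdlB, a cuticle protein gene of the Tweedle family, had 1.62, 1.72 and 2.30 in c564>nub-RB and 2.24, 1.67 and 577 in c564>+, and Osi19 of the Osiris family 6.15, 7.22 and 12.2 in c564>nub-RB and 9.15, 13.3 and 2805 in c564>+. These were high in the single control array only. In c564>+ replicate 3 just 8 probes stood out, with prt, a vesicular transporter gene, at 2275, 63.4 and 55.96 in c564>nub-RB and 148, 5795 and 427 in c564>+, and with CG34040 and CG31468.

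**Figure D5:**
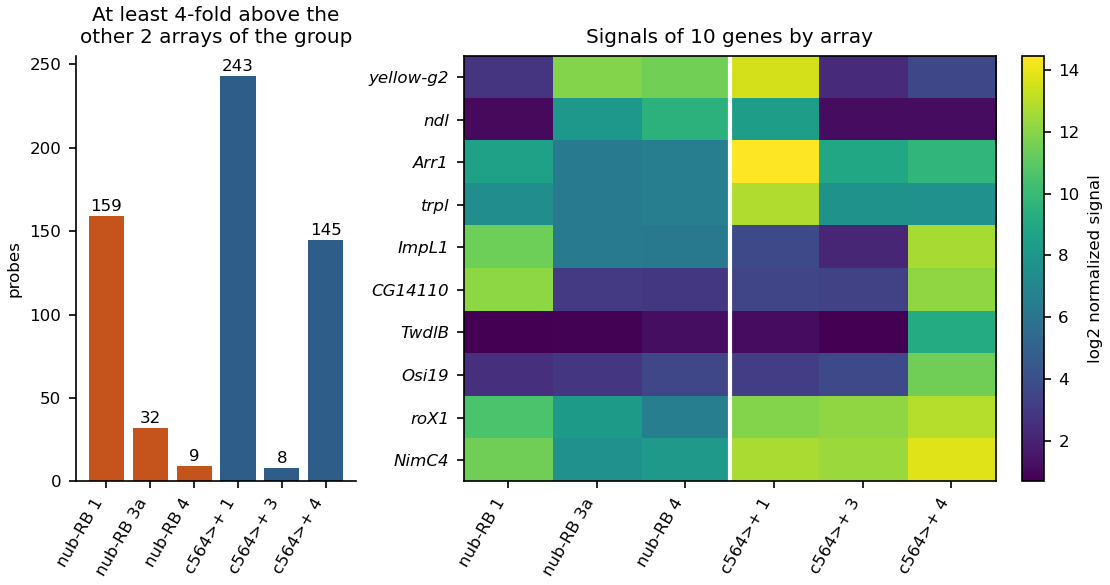
The left panel gives the number of tested probes that are at least 4-fold higher in 1 array than in both other arrays of its group (y axis), for c564>nub-RB replicates 1, 3a and 4 and c564>+ replicates 1, 3 and 4. The right panel gives, as colours, the log2 signals of chosen genes on each array. Beside leading named genes of the c564>+ arrays, it holds trpl, which lay outside the leading genes. It also holds roX1 and NimC4, which were not high in a single c564>+ array. c564>+ replicates 1 and 4 hold 243 and 145 such probes and c564>nub-RB replicate 1 holds 159.

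How far such probes entered a comparison depended on the statistic. By the ratio of mean linear signals, 145 probes were at least 4-fold higher and 425 at least 4-fold lower in c564>nub-RB. Of the 425, 216 (50.8%) were high in a single c564>+ array, and of the 145, 16 (11.03%) were high in a single c564>nub-RB array. With a standard deviation pooled over all probes instead of limma's, 545 probes passed at a false discovery rate of 1%, 173 higher and 372 lower. Among these 372, 118 (31.7%) were high in a single c564>+ array, 68 of them in replicate 1 and 49 in replicate 4, and among the 173 higher ones 12 were high in a single c564>nub-RB array. limma called 64 of the 545. When the probes high in a single array of either group were left out, limma called 111 probes, 58 higher and 53 lower, which included all 83. None of the 83 had been among the probes left out. Leaving out probes of wide spread also changes the variance estimate of limma, so this fit does not test the calls.

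The guts of c564>Pdm2-RB flies, which carry the same driver with another POU transgene, were set against c564>nub-RB guts directly. limma on the 9 gut arrays called 91 of 16540 tested probes (0.550%) between them. For several genes called above, the difference was small. Oat had 3628, 4629 and 6464 in c564>nub-RB, 7291, 11820 and 1723 in c564>Pdm2-RB and 2.28, 3.02 and 2.44 in c564>+, with a log2 difference of -0.15 (SE 0.63, adjusted p = 0.957) between the first pair. wnd had 5109, 5034 and 5532 in c564>nub-RB, 4573, 4836 and 5843 in c564>Pdm2-RB and 1099, 798 and 784 in c564>+, and its log2 difference from c564>Pdm2-RB was 0.05 (SE 0.17, adjusted p = 0.949). The Oat and wnd signals of c564>Pdm2-RB were thus far from those of c564>+. For Rala the log2 difference between c564>nub-RB and c564>Pdm2-RB was 0.0024 (SE 0.13, adjusted p = 0.996), for Srg2 0.21 (SE 0.19, adjusted p = 0.699), for CR32368 0.44 (SE 0.19, adjusted p = 0.37), for lectin-37Da 0.35 (SE 0.17, adjusted p = 0.427) and for CG17264 0.42 (SE 0.13, adjusted p = 0.24). Su(P) and Obp57c, called lower above, were below the signal threshold in both UAS lines and were not tested between them. In c564>Pdm2-RB, Su(P) had 3.31, 2.92 and 3.96 and Obp57c 25.1, 28.3 and 24.2, so both were low there too. Obp57a had 6.65, 3.39 and 3.71 in c564>Pdm2-RB, with a log2 difference of 5.56 (SE 2.24, adjusted p = 0.343). Both UAS lines differ from c564>+ in carrying a transgene, and the effect of the transgene and that of its strain cannot be told apart here.

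Other genes differed between the 2 overexpressed POU genes. CREG had 39911, 45634 and 50547 in c564>nub-RB, 4584, 5235 and 4618 in c564>Pdm2-RB and 4102, 6056 and 4875 in c564>+, and its log2 difference between c564>nub-RB and c564>Pdm2-RB was 3.23 (SE 0.17, adjusted p = 0.000115). AspRS had 33.9, 43.4 and 47.3 in c564>nub-RB, 8566, 8532 and 6319.8 in c564>Pdm2-RB and 7104, 6448 and 5486 in c564>+, a log2 difference of -7.55 (SE 0.19, adjusted p = 1.45e-06) from c564>Pdm2-RB. In both the c564>Pdm2-RB arrays lay in or near the range of c564>+. The same test called Cyp6a2 (2.58), CG12934 (5.29), CG42823 (5.08), CG8204 (2.98) and CAH5 (4.41) higher in c564>nub-RB than in c564>Pdm2-RB, and mthl8 (-7.68), CG8768 (-8.23), Idgf5 (-4.94), RpS23 (-3.22) and CG18327 (-2.56) lower. For the AMP genes the difference was not resolved, as in AttA, with 0.11 (SE 0.89, adjusted p = 0.979), and DptA, with -1.12 (SE 1.11, adjusted p = 0.741).

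The change in gut was also tested against the change in the rest of the body, with 13 arrays of c564>nub-RB and c564>+ in one fit. The 2 tissues differed in the effect of nub-RB at 149 of 17954 probes (0.830%). Of the named genes these included CAH5, CG15199, CG17264, CR32368, mthl8, RpS23 and Tmlh. For CREG and AspRS the effect in gut minus that in rest was 0.01 (SE 0.22) and 0.27 (SE 0.23) on the log2 scale, with adjusted p of 0.986 and 0.48.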

How the data were processed

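RNA of 19 pools of Drosophila tissue was labelled with Cy3 and hybridised to Agilent Drosophila arrays, 1 pool per array. The authors extracted the spot intensity values with Agilent Feature Extraction 10.7.3.1, which subtracts the background, and quantile-normalized the processed signal in Partek. The deposited table holds this normalized signal on a linear scale, and remade from the scanner intensity files 99.9% of its values came within 0.01 on the log2 scale. No column was left unused. The log2 signals of the 6 gut arrays were fitted with limma 3.58.1 in R 4.3.3 (lmFit and eBayes), without a block, on probes with a mean signal above 130 in at least 1 group. Benjamini-Hochberg adjustment covered all tested probes, and a probe was called at 1%. The script was tested on simulated data.

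Named were nub, the 15 called genes with the largest change in each direction on their brightest probe, probes without a symbol in the top 5 of a direction, called list members, the AMP and Drosomycin-like genes, and the 5 leading genes of each c564>+ array. The members and lists were chosen with earlier results of these data known. Symbols, for 1439 of 32162 probes, came from the scanner annotation and mostly from the study's tables of changed genes, updated through RefSeq (Release 6 assembly), so counts over lists cover named genes only. The coordinates of probes were not used here. p-values measure the spread between pools.

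Alternatives were the scanner signals, other scaling and background correction, other thresholds, more groups in the fit, other variance estimates, slide or replicate number as a block and each array left out.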

Additional observations from a re-analysis of the deposited data

Results flagged for a closer look

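The effect of nub-RB differed between gut and the rest of the body, by limma's interaction term over 13 arrays, for 16 of the probes examined, which were the named probes, further probes of the same genes and members of the gene lists. Over all probes tested for this, 149 of 17954 (0.830%) were called. The probes examined were chosen with earlier results of these data known, so the 16 are not a rate. On the log2 scale, the effect in gut minus that in rest was 5.004 (adjusted p = 0.00226, with 6.84 in gut and 1.83 in rest) for CAH5, 3.18 (adjusted p = 0.00845, with 4.65 in gut and 1.47 in rest) for CG15199 (second probe 3.496, adjusted p = 0.0075, with 5.04 in gut and 1.54 in rest) and 1.502 (adjusted p = 0.00241, with 3.24 in gut and 1.74 in rest) for CG17264, which rose more in gut. For CR32368, which rose more in rest, it was -2.10 (adjusted p = 0.00748, with 3.28 in gut and 5.37 in rest). Among the genes that were lower in c564>nub-RB, it was -2.33 (adjusted p = 0.00872, with -7.60 in gut and -5.27 in rest) for mthl8, -2.17 (adjusted p = 0.00683, with -3.58 in gut and -1.41 in rest) for RpS23, -2.31 (adjusted p = 0.00521, with -3.50 in gut and -1.19 in rest) for Tmlh and -1.89 (adjusted p = 0.00923, with -6.32 in gut and -4.44 in rest) for the CG8768 probe A_09_P007031. Of list members that were not called in gut, the hemocyte genes had -7.56 (adjusted p = 0.00862, with -3.90 in gut and 3.66 in rest) for NimC4, -3.80 (adjusted p = 0.00452, with -0.79 in gut and 3.02 in rest) for PPO1 and -2.74 (adjusted p = 0.00967, with -0.20 in gut and 2.53 in rest) for NimC1, and members of the peptide and Toll lists -3.002 (adjusted p = 0.00612, with 0.93 in gut and 3.93 in rest) for CG4269, -1.60 (adjusted p = 0.00967, with -0.02 in gut and 1.57 in rest) for SPE and -1.37 (adjusted p = 0.00923, with 0.62 in gut and 1.99 in rest) for BomBc2. It was -7.19 (adjusted p = 0.00069, with -7.70 in gut and -0.51 in rest) for A_09_P014061, a probe without a gene symbol, whose gut signals were 10.72, 11.02 and 5.42 in c564>nub-RB, 178, 8.04 and 2384 in c564>Pdm2-RB and 1199, 1324 and 3631 in c564>+. CAH5 was at background on all c564>+ gut arrays and mthl8 on all c564>nub-RB gut arrays, so their gut effects were measured against background and the differences are not exact.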

How the results depend on the processing

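Signals remade from the scanner files, quantiles over the 6 gut arrays, normexp background correction, a filter on probes well above background, slide as a random block, a minimum of 2-fold and scaling by the 75th percentile each gave between 66 and 90 calls, within 1.5 times of 83. Under 75th percentile scaling they were 31 higher and 50 lower. No signal threshold gave 33 (16 higher and 17 lower), all 6 groups in the fit 716 (437 and 279), the 9 gut arrays 194 (118 and 76), a variance trend with robust fit 146 (75 and 71) and a false discovery rate of 5% 349 (202 and 147). The form of test that the Methods name gave 8 (5 and 3) with the spread of each probe and 545 (173 and 372) with 1 pooled standard deviation. Leaving out 1 array at a time gave 6 to 46 calls, 2 to 18 higher and 4 to 28 lower. limma with the replicate number as a block called 0, 0 higher and 0 lower (1806 at an unadjusted p below 0.05), and with slide as a fixed block, chosen after seeing the data, also 0 (1391). The labels do not say whether same-numbered arrays are paired. The correlations of the deviations of same-numbered arrays were -0.468, -0.399 and -0.374. They cannot decide this, as the deviations from a mean of 3 arrays are bound to each other. A setting also chosen after seeing the data, without both arrays of number 1, gave 80 calls, of which 25 were among the 83. Requiring 8-fold left 97 probes high in a single c564>nub-RB array and 290 in a single c564>+ array. The difference between gut and rest was called at 330 probes with all 6 groups in the fit. Of 49 named probes, 3 changed sign under a setting, all of them uncalled. They were nub on A_09_P004151, at -0.15 without both arrays of number 1, Drs, at -0.37 under 75th percentile scaling, and Drsl1, at -0.085 with slide as a fixed block and between -0.087 and 0.55 with each array left out, the lowest without c564>+ replicate 1. The causes were not tested. Precision is limited by 3 arrays per group, and probes at background on all arrays of a group have bounds only.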
